A study of Mus musculus with 20 samples.

Results

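The glycolysis and hypoxia target genes described here were a named set of 37 genes, taken by symbol: 24 genes of glucose uptake, glycolysis and the handling of pyruvate and lactate, and 13 further targets of the hypoxia-inducible factors (HIFs). All 37 were found among the 18754 genes listed in every table, and all 37 passed the filter on low values (mean above 0.1 FPKM, sequenced fragments scaled to transcript length and library size) in both experiments. They were followed in 20 mouse retina libraries, 5 in each of 4 groups. The first pair of groups came from oxygen-induced retinopathy (OIR), in which pups of both sexes breathed 75% oxygen from postnatal day (P) 7 to P12, returned to room air, and gave retinas at P17: Atf6+/+ OIR retinas and Atf6-/- OIR retinas, from C57BL/6J mice whose Atf6 allele carries a premature stop codon in every cell. The second pair came from wild-type mice without OIR, injected into the vitreous at P30 with 1 µL of saline vehicle (PBS in the labels) or of 10 µM Ceapin-A7, a compound that keeps ATF6 in the endoplasmic reticulum, and sampled 24 h later. The study's methods give the vehicle more dimethyl sulfoxide than the Ceapin-A7 solution, while the labels give both the same range of what they write as dimethyl sulfide. If the solvent differed, its effect and that of the compound cannot be told apart.

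Glycolysis splits glucose into pyruvate, and in the retina much of that pyruvate leaves as lactate even where oxygen is plentiful, mostly from photoreceptors. HIFs are transcription factors that are degraded when oxygen is present and that, when it is scarce, bind a short motif (the hypoxia response element, with the core ACGTG or GCGTG) near most genes of the glycolytic pathway and near genes for vessel growth, collagen folding and mitochondrial turnover. After hyperoxia, the central OIR retina has lost its capillaries and is short of oxygen on return to room air. ATF6 is an endoplasmic reticulum membrane protein that is cut to release a transcription factor when the folding of secreted proteins is disturbed.

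The relative depth that the smallest steps of the FPKM values give was close to 1 in 18 libraries, 0.936 in saline replicate 2 and 0.656 in Ceapin-A7 replicate 3. Atf6 RNA ran from 14.6 to 16.1 FPKM in Atf6+/+ OIR and from 13.6 to 16.8 in Atf6-/- OIR retinas, so the transcript did not check the genotype labels of an allele that acts on the protein. Rod photoreceptor markers summed to at least 15616 FPKM in every library, as retina should. Lens fibre genes, which mark tissue removed at dissection, summed to between 8.95 and 9639 FPKM in the P30 libraries, 9.88 to 598 in Atf6+/+ OIR and 6.25 to 10.2 in Atf6-/- OIR retinas. In whole retina, fewer cells of a type and less RNA per cell cannot be told apart.

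The promoters of most members hold the HIF core motif. ACGTG and GCGTG were searched on both strands in the 250 bases before each start site of the RefSeq promoter table (GRCm38.p6). Of the 34 members in that table, 30 (88.2%) had at least 1 match, against 57.7% of the 12383 genes tested in OIR retinas and found in it and 41.5% of all 27025 genes. A gene counts here if any of its windows holds a match. By window, the shares were 75.0% in members and 52.0% in genes tested in OIR retinas. The members were named in part as HIF targets. Slc2a3, Ndrg1 and Bhlhe40 had no entry. Gpi1, Tpi1, Eno2 and Vldlr had an entry and no match. The most matches in a single window, 5, were in Ldha and Bnip3. The palindrome CACGTG, which is also the E-box bound by MYC and the circadian factors, counts as a match on each strand and was found in a window of Pfkfb3, Pfkm, Ldha, Slc16a1 and Bnip3. Below are the windows of the 3 phosphofructokinase genes and of Pgam1, 5′ to 3′ on the strand of the gene, with matches of either strand in capitals and the start site just after the last base. Pfkp and Pfkl had the smallest p-values of the set in 1 comparison each, and Pfkm and Pgam1 followed Pfkl in the knockout. Only windows with a match were chosen. Gpi1, whose p after Ceapin-A7 was smaller than those of Pfkm and Pgam1 in the knockout, was passed over because it has no match.
Pfkp, chr13:6648772-6649021, minus strand: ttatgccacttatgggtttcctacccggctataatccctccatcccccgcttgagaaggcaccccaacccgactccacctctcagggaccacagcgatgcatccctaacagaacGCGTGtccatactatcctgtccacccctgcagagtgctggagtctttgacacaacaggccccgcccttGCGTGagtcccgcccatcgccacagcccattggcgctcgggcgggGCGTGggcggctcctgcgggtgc
Pfkl, chr10:78009808-78010057, minus strand: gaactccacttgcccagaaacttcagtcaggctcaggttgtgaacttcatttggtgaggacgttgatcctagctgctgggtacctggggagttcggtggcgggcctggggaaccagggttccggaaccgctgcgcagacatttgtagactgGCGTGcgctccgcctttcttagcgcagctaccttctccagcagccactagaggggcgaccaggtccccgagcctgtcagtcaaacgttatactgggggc
Pfkm, chr15:98092339-98092588, plus strand: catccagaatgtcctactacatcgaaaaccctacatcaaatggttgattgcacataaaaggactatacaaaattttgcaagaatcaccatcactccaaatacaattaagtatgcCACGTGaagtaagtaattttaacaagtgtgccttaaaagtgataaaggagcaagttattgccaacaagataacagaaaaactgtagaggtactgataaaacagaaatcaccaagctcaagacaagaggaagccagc
Pgam1, chr19:41911621-41911870, plus strand: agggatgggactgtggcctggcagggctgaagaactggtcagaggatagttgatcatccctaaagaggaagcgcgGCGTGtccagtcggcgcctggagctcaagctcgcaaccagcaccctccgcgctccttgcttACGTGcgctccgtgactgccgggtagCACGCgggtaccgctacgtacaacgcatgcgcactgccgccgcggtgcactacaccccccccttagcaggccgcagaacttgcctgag
The Pfkp window holds 3 matches, which begin 136, 68 and 23 bases before the start. That of Pfkl holds 1, at 99 bases. The Pfkm window is 1 of 4 in the table for that gene and holds the palindrome. Pgam1 has matches at 175, 114 and 88 bases. A match describes the letters only, and no binding was measured.

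Loss of ATF6 in the OIR retina went with lower values across most of the set, none of them past the adjusted threshold. In Atf6-/- OIR retinas 29 of 37 members (78.4%) had a lower mean log2 value than in Atf6+/+ OIR retinas, where 49.3% of all 15704 genes tested did, and the median log2 difference was -0.18 against 0.0028 for all genes. That median was -0.11 without Atf6+/+ OIR replicate 1 and -0.083 with array weights, which weight each library by its fit. No member passed the adjusted threshold (limma, Benjamini-Hochberg over all genes, adjusted p under 0.05), which 5 genes of the whole table did (0.0318%). At an unadjusted p of at most 0.05, 8 members (21.6%) were lower and 0 higher, against 12.7% of all genes (5.81% lower and 6.94% higher). These were Pfkl, Pfkm, Pgam1, Bhlhe40, Slc16a3, Pfkfb3, Adm and P4ha1, with adjusted p between 0.358 and 0.382. In no member did the 5 libraries of one group all lie outside those of the other, which 1.52% of genes showed.

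**Figure D1:**
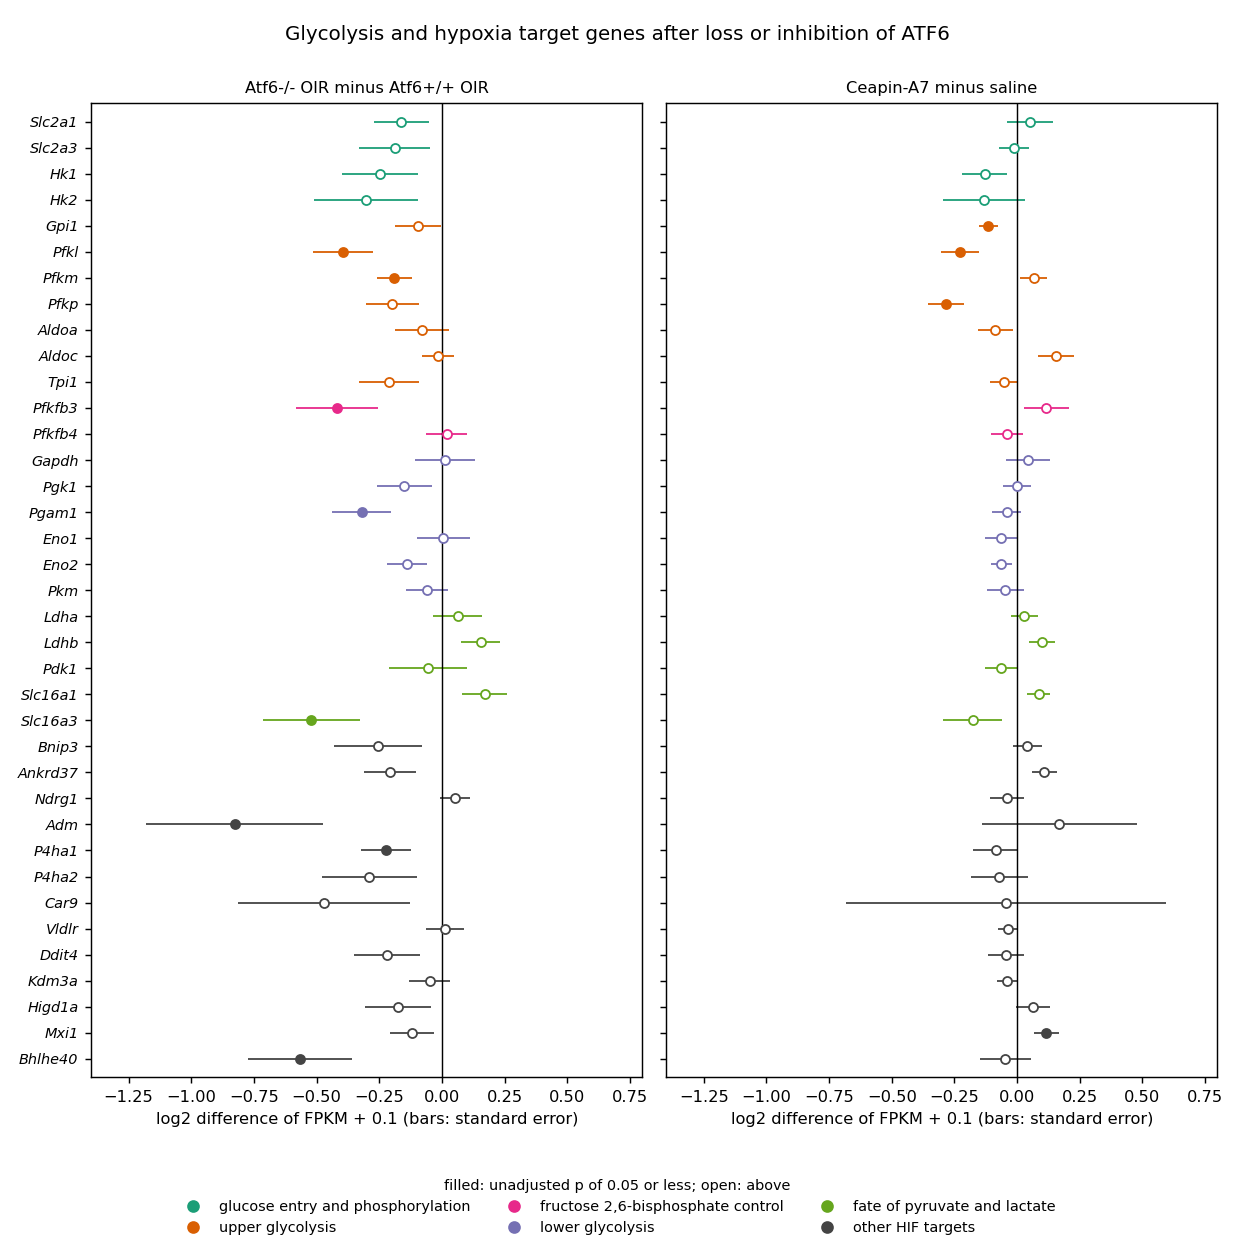
Log2 difference of each of the 37 members (rows, coloured by role) in Atf6-/- OIR minus Atf6+/+ OIR retinas (left) and Ceapin-A7 minus saline retinas (right), 5 libraries a group. Points are limma estimates, bars are standard errors, and filled points have an unadjusted p of at most 0.05: 8 on the left, all below 0, and 4 on the right, of which 3 are below 0.

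Glucose enters retinal cells through GLUT1 and GLUT3 (Slc2a1, Slc2a3) and is trapped by hexokinases (Hk1, Hk2). All 4 were lower in the knockout mean, as were 49.3% of all genes tested. At an unadjusted p of at most 0.05 were 0 of 4, against 12.7% of all genes. Slc2a1 ranged from 161 to 242 FPKM in Atf6+/+ OIR and from 151 to 179 in Atf6-/- OIR retinas, a log2 difference of -0.16 (SE 0.11). For Hk2 the ranges were 23.8 to 32.9 and 13.7 to 32.4, a log2 difference of -0.30 (SE 0.21). The highest Slc2a1 value was that of Atf6+/+ OIR replicate 1, and the ranges of all 4 genes overlapped.

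Of the upper steps, phosphofructokinase, which commits sugar to glycolysis, stood out. Its liver-type subunit Pfkl had the smallest p of all members in this comparison. Its level was 197, 167, 185, 175 and 143 FPKM in Atf6+/+ OIR retinas (replicates 1 to 5) and 129, 111, 139, 113 and 161 in Atf6-/- OIR retinas (log2 difference -0.40, SE 0.12, limma adjusted p = 0.358). All knockout libraries but replicate 5 were below every Atf6+/+ OIR library. The muscle-type subunit Pfkm measured 57.6, 58.7, 53.8, 50.7 and 57.5 FPKM in Atf6+/+ OIR and 45.2, 48.2, 48.3, 48.0 and 51.2 in Atf6-/- OIR retinas (log2 difference -0.19, SE 0.07, limma adjusted p = 0.362). The groups met at a single pair of libraries, the lowest control at 50.7 and the highest knockout at 51.2. The platelet-type subunit Pfkp, with a log2 difference of -0.20 (SE 0.11), overlapped widely at 187 to 280.1 and 179.6 to 238 FPKM. The isomerase Gpi1, the aldolases Aldoa and Aldoc and the triose phosphate isomerase Tpi1 had log2 differences between -0.21 and -0.015. All 7 genes of these steps were lower in the knockout mean, with 2 at an unadjusted p of at most 0.05. Of all genes tested, 49.3% were lower and 5.81% were lower at that p.

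Phosphofructokinase is switched on by a fructose bisphosphate made by the PFKFB enzymes. Pfkfb3, the form best known for driving glycolysis in growing endothelium, was at 26.5, 16.8, 14.3, 18.4 and 14.0 FPKM in Atf6+/+ OIR and 12.1, 11.6, 16.4, 11.9 and 13.0 in Atf6-/- OIR retinas (log2 difference -0.42, SE 0.16, limma adjusted p = 0.364). The Atf6+/+ OIR replicate 1 lay far above the rest. Without it the log2 difference was -0.26. Pfkfb4 ranged from 4.98 to 6.01 FPKM in Atf6+/+ OIR and 4.77 to 6.08 in Atf6-/- OIR retinas, with a log2 difference of 0.019 (SE 0.08). The most abundant PFKFB RNA, Pfkfb2, is outside the set and was higher in the knockout mean. It was at 76.0 to 95.9 FPKM in Atf6+/+ OIR and 91.4 to 128 in Atf6-/- OIR retinas.

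The lower steps, which return ATP, include Gapdh, the most abundant RNA of the set. Pgam1, the phosphoglycerate mutase, was the 1 gene of 6 here at an unadjusted p of at most 0.05, against 12.7% of all genes. It measured 692, 588, 625, 611 and 541 FPKM in Atf6+/+ OIR and 488, 443, 492, 403 and 606 in Atf6-/- OIR retinas (log2 difference -0.32, SE 0.12, limma adjusted p = 0.362). As with Pfkl, only replicate 5 of the knockout lay in the Atf6+/+ OIR range. Gapdh, at 6082 to 8612 FPKM in Atf6+/+ OIR and 6483 to 7372 in Atf6-/- OIR retinas, had a log2 difference of 0.013 (SE 0.12). The values for Eno1, the main enolase, and Pkm, the pyruvate kinase gene, were 0.0058 (SE 0.11) and -0.059 (SE 0.08). Those for Pgk1 and the neuronal enolase Eno2 were -0.15 (SE 0.11) and -0.14 (SE 0.08). Gapdh, Pgam1, Eno1 and Ldha have near-identical processed copies in the mouse genome, so their FPKM depends on how reads were shared among copies.

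Pyruvate is turned to lactate by lactate dehydrogenase (Ldha, Ldhb), or kept from oxidation in the mitochondrion by Pdk1. Lactate crosses membranes on MCT1 and MCT4 (Slc16a1, Slc16a3). The 2 transporters lay on opposite sides of 0. Slc16a3, the HIF-induced exporter MCT4, was at 94.2, 68.6, 70.0, 80.2 and 51.5 FPKM in Atf6+/+ OIR and 54.8, 33.8, 57.2, 42.2 and 64.6 in Atf6-/- OIR retinas (log2 difference -0.52, SE 0.19, limma adjusted p = 0.362). Slc16a1 was at 35.8, 44.0, 35.1, 36.7 and 38.8 FPKM in Atf6+/+ OIR and 45.4, 37.8, 45.0, 48.1 and 36.1 in Atf6-/- OIR retinas (log2 difference 0.17, SE 0.09, limma adjusted p = 0.42). Both pairs of groups overlapped. Ldha, Ldhb and Pdk1 had log2 differences of 0.062 (SE 0.10), 0.15 (SE 0.08) and -0.056 (SE 0.16). Thus 3 of the 5 genes of this step were higher in the knockout mean, more than in any other step. Lower in the knockout mean were 49.3% of all genes tested.

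Among the 13 HIF targets outside glycolysis, 11 were lower in the knockout mean, 3 of them at an unadjusted p of at most 0.05. Among all genes tested, the shares were 49.3% lower and 5.81% lower at that p. Adm encodes adrenomedullin, a vasoactive peptide of hypoxic tissue. It was at 32.6, 13.9, 9.25, 12.9 and 12.2 FPKM in Atf6+/+ OIR and 4.84, 7.78, 16.3, 6.04 and 9.24 in Atf6-/- OIR retinas (log2 difference -0.83, SE 0.35, limma adjusted p = 0.374). The largest value of the group, in Atf6+/+ OIR replicate 1, exceeded the next by more than the whole spread of the other 4, and without that library the log2 difference was -0.53. The circadian and hypoxic repressor Bhlhe40 was at 51.9, 26.9, 23.9, 21.9 and 28.6 FPKM in Atf6+/+ OIR and 16.6, 19.0, 21.8, 17.3 and 23.1 in Atf6-/- OIR retinas (log2 difference -0.57, SE 0.21, limma adjusted p = 0.362). Its highest value came from the same library, without which the log2 difference was -0.35. P4ha1, a subunit of the collagen prolyl hydroxylase, was at 24.9, 21.8, 22.5, 25.5 and 18.3 FPKM in Atf6+/+ OIR and 19.9, 15.8, 20.2, 19.6 and 19.7 in Atf6-/- OIR retinas (log2 difference -0.22, SE 0.10, limma adjusted p = 0.382). Here the only Atf6+/+ OIR library inside the knockout range was replicate 5. The mitophagy receptor Bnip3 (-0.25, SE 0.18), the mTORC1 inhibitor Ddit4 (-0.22, SE 0.13), Ankrd37 (-0.21, SE 0.10), Higd1a of the respiratory chain (-0.18, SE 0.13), the MYC antagonist Mxi1 (-0.12, SE 0.09) and the histone demethylase Kdm3a (-0.049, SE 0.08) were lower on the log2 scale without reaching that p. So were P4ha2 (-0.29, SE 0.19) and the carbonic anhydrase Car9 (-0.47, SE 0.34), which stayed under 1 FPKM in all 10 OIR libraries. Ndrg1 (0.051, SE 0.06) and the lipoprotein receptor Vldlr (0.011, SE 0.08) were the 2 with a positive value.

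**Figure D2:**
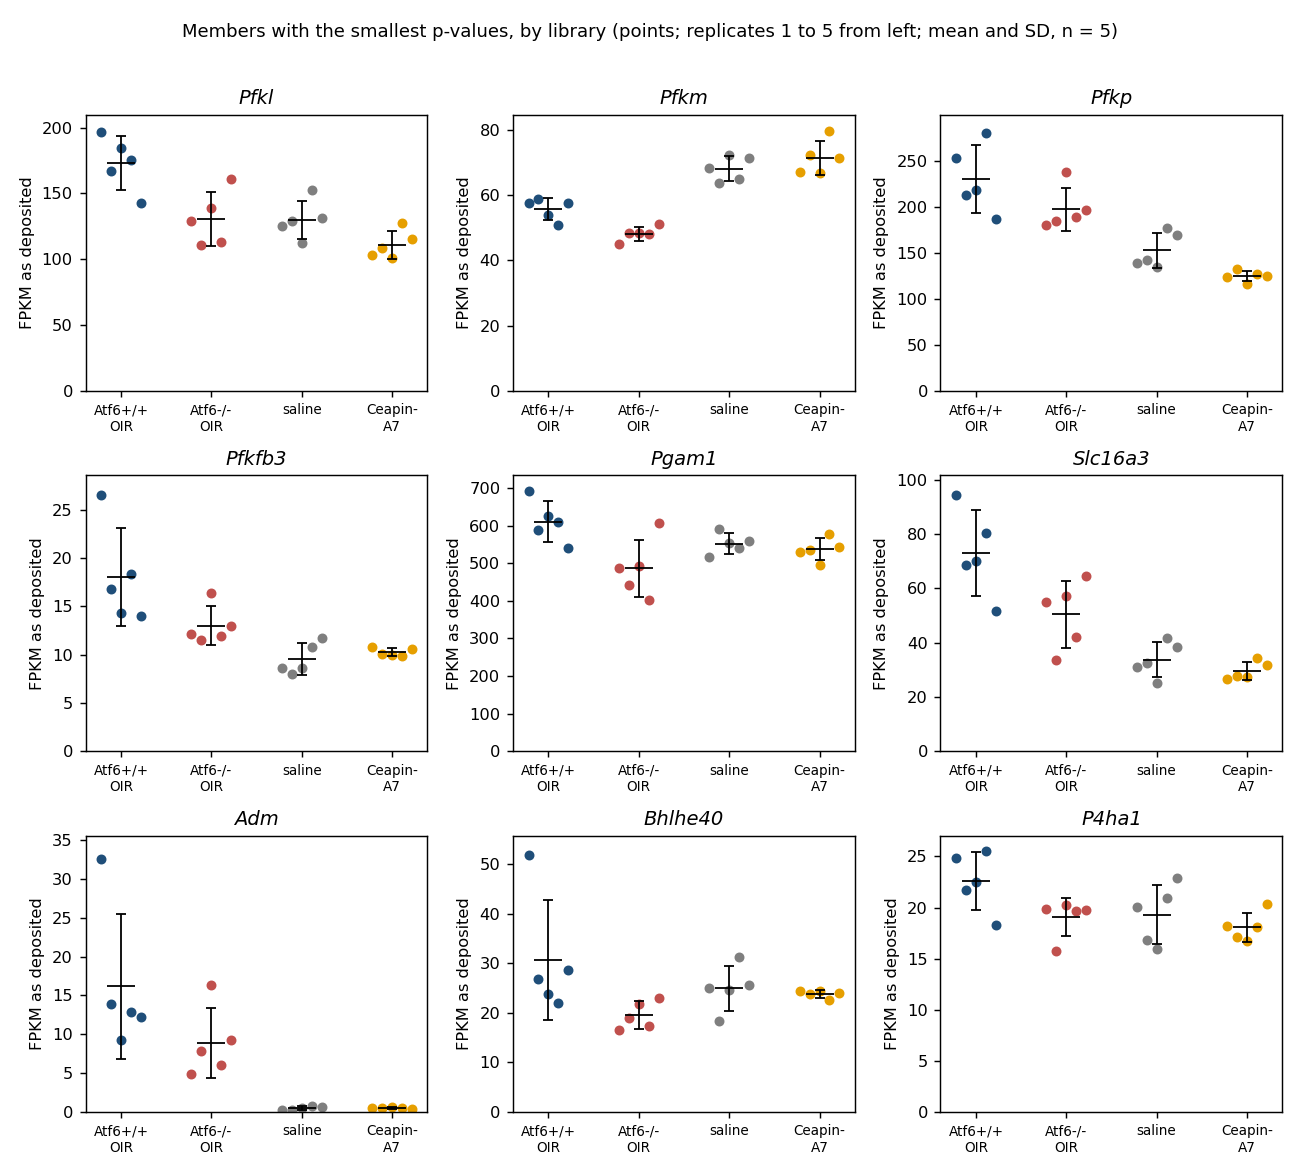
FPKM as deposited (vertical axes, from 0) of the 8 members with an unadjusted p of at most 0.05 in the knockout comparison and of Pfkp, in the 20 libraries by group. Each point is a library, replicates 1 to 5 from left to right, with the mean and SD of 5; Atf6+/+ OIR replicate 1 is the highest point of its group for Adm (32.6), Bhlhe40 (51.9) and Pfkfb3 (26.5).

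Many of the members moved together from library to library within the OIR groups. Of the 37 genes, Atf6+/+ OIR replicate 4 held the highest value of its group in 18, replicate 1 in 16, and replicate 5 the lowest in 20. In the knockout, replicate 3 was highest in 19. Across the 10 OIR libraries, after subtracting group means, the median correlation over pairs of members was 0.43, and it was 0.062 across the 10 P30 libraries. The closest pairs in OIR retinas were Pgk1 with Ldha (r = 0.99) and Bnip3 with Higd1a (r = 0.97). Pfkl was closest to Pgam1 (r = 0.95) and Slc16a3 (r = 0.93). Ldhb ran against Pfkm (r = -0.80). These are descriptions over 10 libraries that share depth and tissue content. Correlations were not taken over pairs of other genes, so the values do not tell whether moving together is particular to the members. As a share of all FPKM, the 37 genes took 4.36 to 5.54% in Atf6+/+ OIR and 4.37 to 4.84% in Atf6-/- OIR retinas.

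**Figure D3:**
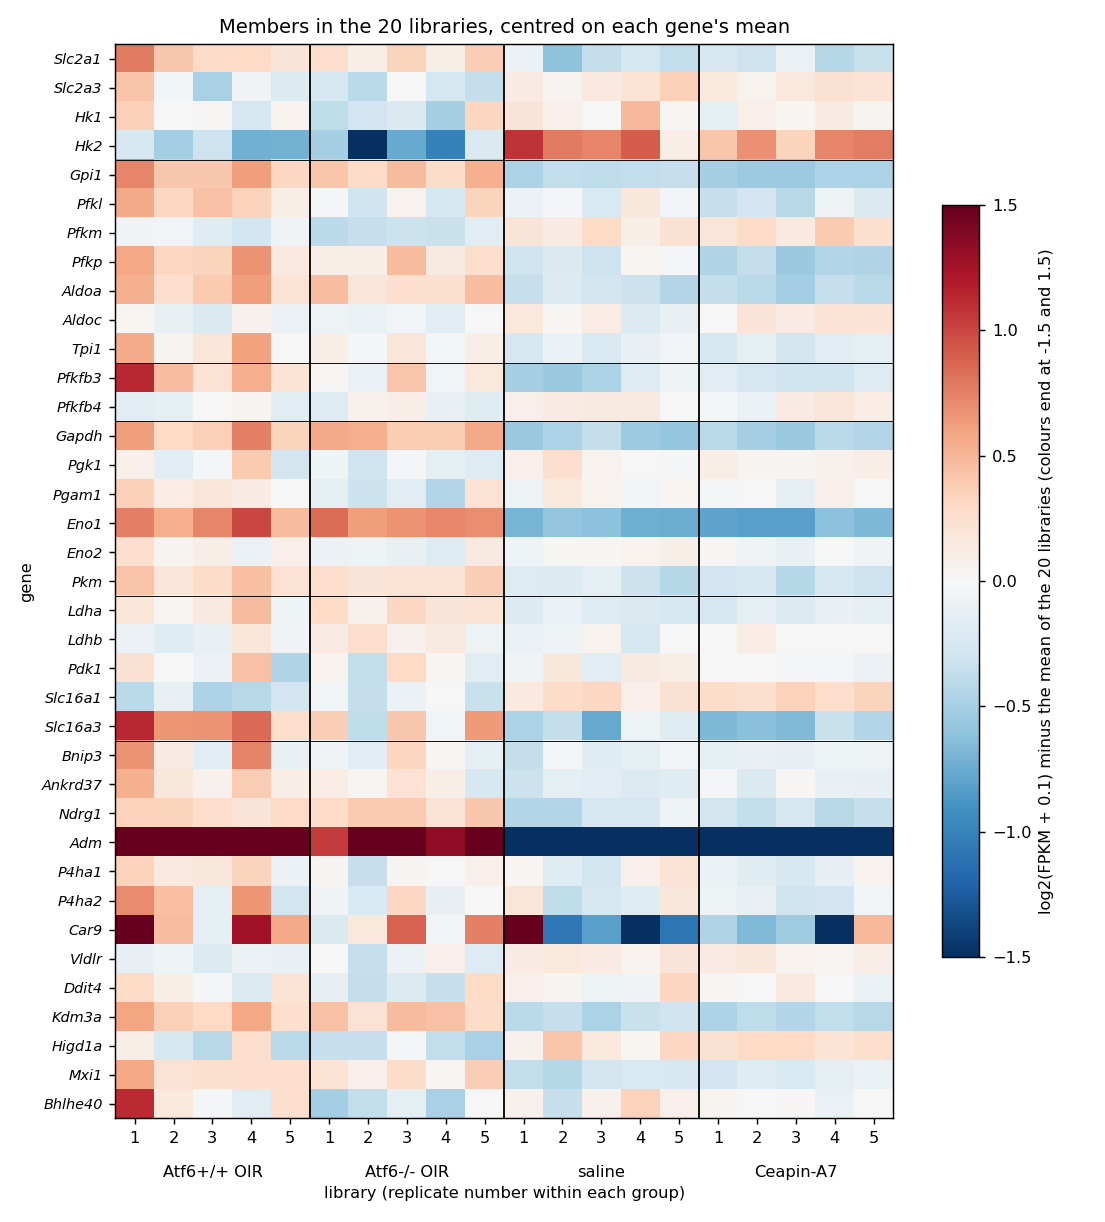
Log2(FPKM + 0.1) of the 37 members (rows, grouped by role) in the 20 libraries (columns), each centred on the gene's mean over the 20, from blue (lower) to red (higher), with colours ending at -1.5 and 1.5. Atf6+/+ OIR replicates 1 and 4 hold the highest values of their group in 16 and 18 genes, and Adm separates all OIR from all P30 libraries.

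Other features of the tissue also differed between the OIR groups, with no cell type marker past the adjusted threshold. Of the mural cell markers 8 of 8 were lower in the knockout mean (4 at an unadjusted p of at most 0.05), with summed levels of 98.9 to 146 FPKM in Atf6+/+ OIR and 81.7 to 102 in Atf6-/- OIR retinas. Endothelial markers were lower in 10 of 11 (4 at that p), summing to 129 to 195 and 118 to 166 FPKM. Markers of activated glia were lower in 7 of 7 (2 at that p), summing to 205 to 457 and 160 to 309 FPKM. Erythroid genes were lower in 5 of 5 tested (0 at that p), with sums of 379.6 to 2505 and 407 to 1361 FPKM and 2 of 7 genes below the filter. The rod markers were higher in 10 of 10 and the cone markers in 9 of 9 (3 and 2 at that p), with rod sums of 18774 to 21274 and 20297 to 22986 FPKM. Retinal pigment epithelium markers, from the neighbouring layer, were higher in 9 of 10 (5 at that p), with sums of 19.6 to 115 and 72.6 to 301 FPKM. Lens fibre genes were lower in 11 of 12 tested (10 at that p). Microglia and macrophage markers were lower in 8 of 9 (1 at that p). Of the 9 Muller glia markers 5 were higher (1 at that p) and 4 lower. Of all genes tested, 49.3% were lower in the knockout mean and 12.7% were at that p. No marker of these lists was at 0 throughout a group. Across all genes, the knockout difference also followed the GC content of the transcripts (Spearman's rho -0.479, across genes, which are not independent), and after a correction for it 27 of 37 members were lower, 8 were at an unadjusted p of at most 0.05, and the median was -0.15. Beyond that correction, the part of these features in the members' values was not tested.

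Of the other HIF targets, 40 genes outside the set, 28 were lower in Atf6-/- OIR retinas, with a median log2 difference of -0.13. None passed the adjusted threshold in limma, while 11 were lower and 3 higher at an unadjusted p of at most 0.05 (35% of the list, against 12.7% of all genes). The 3 smallest p-values were those of the nuclear receptor Rora (log2 difference 0.26, SE 0.07, limma adjusted p = 0.358), the HIF prolyl hydroxylase Egln1 (log2 difference -0.43, SE 0.14, limma adjusted p = 0.358) and the collagen lysyl hydroxylase Plod1 (log2 difference -0.37, SE 0.13, limma adjusted p = 0.362). Of 38 further genes of glycolysis and pyruvate use, 32 were tested and 13 were lower, with a median of 0.021. In these, 3 were higher and 2 lower at that unadjusted p (15.6%, near the share of all genes), and none passed the adjusted threshold. Those higher at that p included Pfkfb2 (0.35, SE 0.09) and G6pdx of the pentose phosphate pathway (0.20, SE 0.07).

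Ceapin-A7 was compared with saline to ask what blocking ATF6 does within a day in a retina without OIR. Most differences were small, and the smallest p-values belonged to Pfkp and Pfkl, phosphofructokinase subunits with lower values after the compound. Of the 37, 23 (62.2%) were lower, against 49.7% of all genes, and 14 higher, with a median log2 difference of -0.040 against 0.00089 for all genes. The Y-linked gene Ddx3y was above 12 FPKM in 1 of 5 saline (replicate 5) and 3 of 5 Ceapin-A7 libraries, and in 2 of 5 of each OIR group. The members' median was -0.019 with Ddx3y as a covariate, -0.022 without saline replicate 5 and -0.026 with array weights. After TPM rescaling it was -0.079, where the median of all genes was -0.037. No member and none of the 15408 genes tested passed the adjusted threshold in limma (0%), and 1595 genes were at an unadjusted p of at most 0.05. At that p, 4 members (10.8%) stood out against 10.4% of all genes, 3 of them lower (5.31% of genes) and 1 higher (5.04%). The members' share was thus near that of all genes.

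Pfkp, the platelet-type subunit and the most abundant of the 3 in these retinas, had the smallest p. It measured 138, 142, 135, 177 and 169 FPKM in saline-treated and 123, 132, 116, 126 and 125 in Ceapin-A7-treated retinas (log2 difference -0.28, SE 0.07, limma adjusted p = 0.472). Every Ceapin-A7 library was below every saline library, as was so for 71 of 15408 genes (0.461%). In 135 genes every Ceapin-A7 library was above. Pfkl measured 125, 129, 113, 153 and 131 FPKM in saline-treated and 103, 108, 100.5, 127 and 115 in Ceapin-A7-treated retinas (log2 difference -0.23, SE 0.08, limma adjusted p = 0.472). The Pfkl groups overlapped through Ceapin-A7 replicates 4 and 5. The mean of Pfkm was not lower, at 68.4, 63.8, 72.4, 65.0 and 71.3 FPKM in saline-treated and 67.0, 72.4, 67.0, 79.7 and 71.4 in Ceapin-A7-treated retinas (log2 difference 0.067, SE 0.05, limma adjusted p = 0.639). The step before phosphofructokinase, Gpi1, measured 312, 329, 327, 341 and 346 FPKM in saline-treated and 304, 294, 299.6, 316 and 314 in Ceapin-A7-treated retinas (log2 difference -0.11, SE 0.04, limma adjusted p = 0.472). The fourth gene, Mxi1, was higher, at 37.9, 35.5, 39.7, 42.5 and 41.9 FPKM in saline-treated and 39.4, 42.8, 41.7, 44.4 and 45.7 in Ceapin-A7-treated retinas (log2 difference 0.12, SE 0.05, limma adjusted p = 0.472). Both Gpi1 and Mxi1 overlapped between the groups.

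The other members of the P30 comparison lay between log2 differences of -0.18 (Slc16a3) and 0.17 (Adm), both overlapping. The hexokinases had values of -0.13 (SE 0.09) for Hk1 and -0.13 (SE 0.16) for Hk2, and Gapdh, Pgk1 and Ldha lay at 0.043 (SE 0.09), 0.00098 (SE 0.06) and 0.03 (SE 0.05). Aldoc, the brain-type aldolase, had the largest positive value of the glycolytic genes, 0.16 (SE 0.07). Markers of activated glia were lower after Ceapin-A7 in 7 of 7 genes (4 at an unadjusted p of at most 0.05), with sums of 127 to 388 FPKM in saline-treated and 94.7 to 199 in Ceapin-A7-treated retinas. Rod markers were higher in 10 of 10 (1 at that p) and cone markers in 9 of 9 (6 at that p), with rod sums of 15616 to 23183 and 21265 to 22818 FPKM. Lens fibre genes were higher in 13 of 13 (0 at that p), with sums of 8.95 to 5361 and 95.6 to 9639 FPKM. Of the retinal pigment epithelium markers 3 of 10 were higher and 2 lower at that p, with sums of 124 to 261 and 103 to 297 FPKM, and of the Muller glia markers 2 of 9 were higher and 1 lower, with sums of 1374 to 2287 and 1993 to 2259 FPKM. At that p were 10.4% of all genes. The part of these cells in the Pfkp and Pfkl values was not tested. Of the further genes of glycolysis and pyruvate use, 7 of 32 tested (21.9%) were at an unadjusted p of at most 0.05, 6 higher and 1 lower. The higher ones included the mitochondrial pyruvate carrier subunit Mpc2 (0.21, SE 0.06) and the pyruvate dehydrogenase subunit Pdhb (0.17, SE 0.06). The lower one was the hexokinase-like Hkdc1 (-0.58, SE 0.18). Of the other HIF targets 1 of 39 was at that p, the placental growth factor Pgf (-0.69, SE 0.29). None of these passed the adjusted threshold.

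The effect of the knockout was set against that of Ceapin-A7 by testing their difference in 1 fit of all 20 libraries, which share no library between the effects but differ in age, oxygen history and route of ATF6 loss. No member passed the adjusted threshold (limma, 5 of 15628 genes, 0.032%), and 5 members were at an unadjusted p of at most 0.05 (13.5%, all more negative in the knockout, against 9.19% of genes, 3.79% more negative). They were Pfkm (difference of log2 differences -0.25, SE 0.08, adjusted p = 0.44), Pfkfb3 (-0.54, SE 0.20), Ankrd37 (-0.31, SE 0.12), Mxi1 (-0.23, SE 0.10) and Bhlhe40 (-0.52, SE 0.25), with adjusted p up to 0.541. For Pfkl, at an unadjusted p of at most 0.05 and lower in both experiments, the difference was -0.17 (SE 0.15), and for Pfkp it was 0.088 (SE 0.14). Pfkl passed the adjusted threshold in neither experiment (limma adjusted p = 0.358 and 0.472). Lower at that unadjusted p were 5.81% of all genes in the knockout and 5.31% after Ceapin-A7.

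The order of levels between the experiments was then described by setting Atf6+/+ OIR against saline-treated retinas. Age, oxygen, injection and the sets of libraries differ together here and cannot be told apart. Of the 37 members, 25 (67.6%) passed the adjusted threshold (limma, 20 libraries), 19 higher and 6 lower in OIR retinas, where 59% of all 15628 genes did, 29.6% higher and 29.4% lower. The median log2 difference was 0.37 against 0.0095 for all genes. In 16 members every OIR library was above every saline library, and in 4 below, against 20.5% and 19.9% of all genes.

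Adm was the member furthest apart. In the P30 retinas it was at 0.23, 0.16, 0.48, 0.76 and 0.65 FPKM with saline and 0.46, 0.53, 0.57, 0.45 and 0.34 with Ceapin-A7, against 9.25 to 32.6 in Atf6+/+ OIR retinas (log2 difference 4.86, SE 0.35, limma adjusted p = 7.75e-10). Eno1 measured 3121, 2722, 3135, 3837 and 2564 FPKM in Atf6+/+ OIR and 1141, 1191, 1188, 1135 and 1124 in saline-treated retinas (log2 difference 1.38, SE 0.09, limma adjusted p = 1.46e-10). Gapdh measured 7594, 6082, 6449, 8612 and 6189.6 FPKM in Atf6+/+ OIR and 3347, 3493, 3779.6, 3440.3 and 3353 in saline-treated retinas (log2 difference 0.98, SE 0.10, limma adjusted p = 1.31e-07). For both enzymes the lowest OIR library was well above the highest saline library. Slc16a3, given above for OIR retinas, was at 30.9, 32.6, 25.1, 41.6 and 38.5 FPKM with saline and 26.6, 27.5, 27.3, 34.3 and 31.9 with Ceapin-A7 (log2 difference 1.09, SE 0.17, limma adjusted p = 1.86e-05 for OIR against saline). Car9 was low throughout, at 0.96, 0.34, 0.19, 0.68 and 0.37 FPKM in Atf6+/+ OIR and 1.2, 0.05, 0.08, 0 and 0.05 in saline-treated retinas (log2 difference 1.30, SE 0.54, limma adjusted p = 0.0453). Saline replicate 1 held the highest Car9 value of all 20 libraries, and the call was lost under most other settings. Gpi1 (0.88, SE 0.07), Pfkfb3 (0.87, SE 0.14), Kdm3a (0.79, SE 0.07), Slc2a1 (0.73, SE 0.10) and Aldoa (0.72, SE 0.09) followed, each without overlap.

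The 6 members that were lower in OIR than in saline-treated retinas were led by Hk2. Hk2, the hexokinase of photoreceptors, measured 32.9, 27.6, 32.2, 24.5 and 23.8 FPKM in Atf6+/+ OIR, 27.4, 13.7, 23.3, 19.6 and 32.4 in Atf6-/- OIR, 83.1, 65.7, 64.5, 75.3 and 42.5 in saline-treated and 51.9, 62.5, 49.7, 65.7 and 67.3 in Ceapin-A7-treated retinas (log2 difference -1.22, SE 0.20, limma adjusted p = 2.61e-05 for Atf6+/+ OIR against saline). All 10 OIR libraries were below all 10 P30 libraries. Slc16a1 was at 52.2, 56.0, 57.8, 51.0 and 56.3 FPKM in saline-treated retinas (log2 difference -0.54, SE 0.07, limma adjusted p = 3.43e-06) and also did not overlap with its OIR values above. Higd1a was at 48.5, 38.8, 34.6, 56.4 and 34.1 FPKM in Atf6+/+ OIR and 47.6, 59.3, 49.8, 47.2 and 57.3 in saline-treated retinas (log2 difference -0.34, SE 0.11, limma adjusted p = 0.0164), with overlap through OIR replicates 1 and 4. Pfkm had a lower OIR level as well (log2 difference -0.31, SE 0.06, limma adjusted p = 0.000172), without overlap. Vldlr measured 39.1, 41.2, 37.9, 41.7 and 39.7 FPKM in Atf6+/+ OIR and 46.5, 46.6, 46.1, 45.5 and 49.8 in saline-treated retinas (log2 difference -0.25, SE 0.06, limma adjusted p = 0.00155). Its groups did not overlap, with 41.7 the highest OIR and 45.5 the lowest saline value. The sixth was Pfkfb4 (log2 difference -0.18, SE 0.07, limma adjusted p = 0.0434), which overlapped.

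Between these ends, 12 members did not pass the adjusted threshold. Pgk1 (-0.066, SE 0.09), Pdk1 (-0.011, SE 0.13), Ddit4 (0.014, SE 0.11), Ldhb (0.026, SE 0.07), Eno2 (0.048, SE 0.06), Aldoc (-0.058, SE 0.07) and Hk1 (-0.12, SE 0.13) had the log2 differences nearest to 0. Pgam1 (0.13, SE 0.09), Bhlhe40 (0.22, SE 0.17), P4ha1 (0.21, SE 0.10), P4ha2 (0.37, SE 0.17) and Slc2a3 (-0.25, SE 0.12) were further out. The cell content of the tissue differed at the same time: markers higher in OIR at the adjusted threshold were 8 of 11 endothelial, 7 of 8 mural, 8 of 9 microglial and 5 of 5 tested erythroid genes, where 29.6% of all genes were. Lower at that threshold were 5 of 10 retinal pigment epithelium markers, all without overlap, and 2 of 13 lens fibre genes, where 29.4% of all genes were. The lens fibre genes were lower in 13 of 13 means. The part of these cells in the members' levels was not tested. The summed endothelial markers were 83.0 to 103 FPKM and the mural markers 28.1 to 37.9 in saline-treated retinas, below their ranges in OIR retinas.

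**Figure D4:**
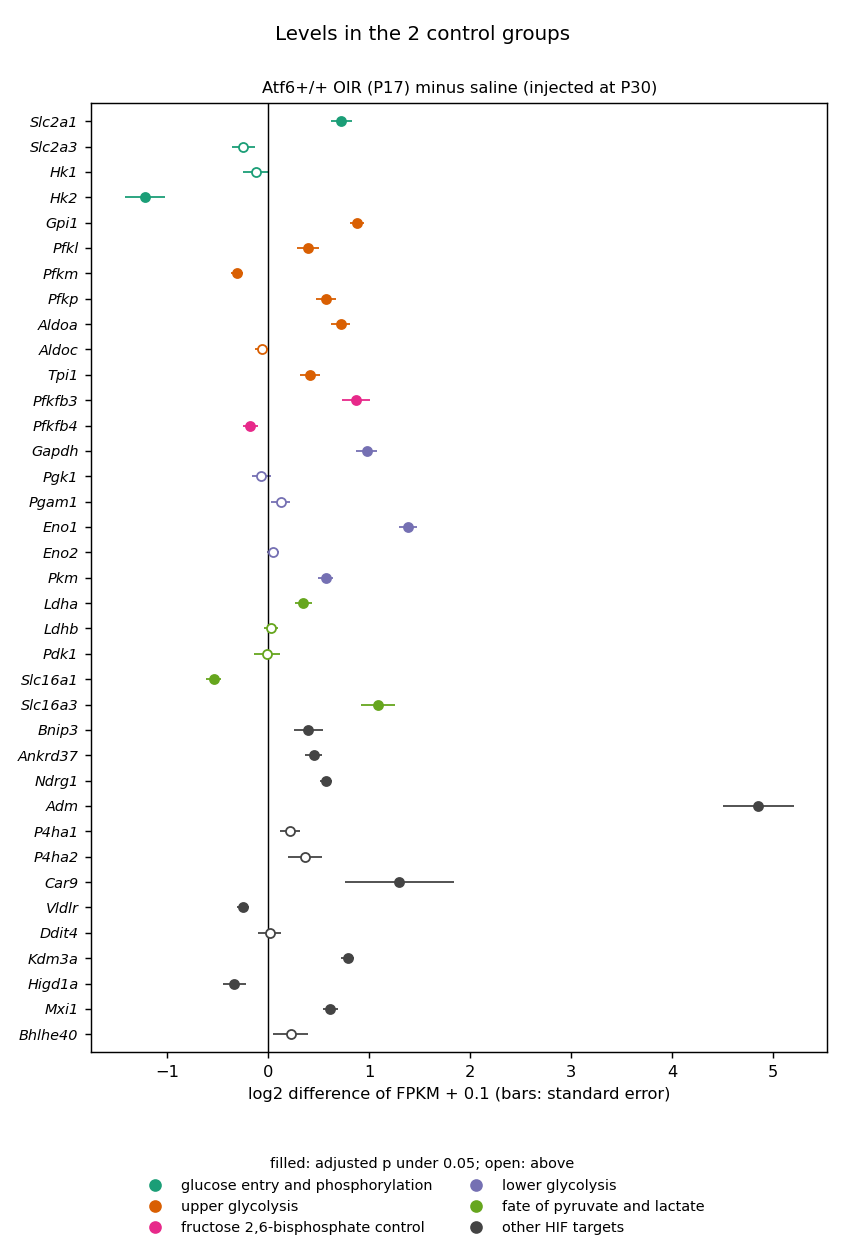
Log2 difference of each of the 37 members (rows, coloured by role) in Atf6+/+ OIR retinas at P17 minus saline-treated retinas injected at P30, 5 libraries each. Points are limma estimates from the fit of 20 libraries and bars standard errors; the 25 filled points passed the adjusted threshold, 19 to the right of 0 and 6 to the left, from Hk2 at -1.22 to Adm at 4.86.

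Several steps are carried by isozymes, and their balance differed between the experiments. FPKM is scaled to length, so shares within a library can be compared. Each share is within the members of the set alone, so that Eno3, for example, is not counted among the enolases. Nor is Pfkfb2, the most abundant PFKFB RNA in every group, counted beside Pfkfb3 and Pfkfb4. Eno2, the neuronal enolase, made up 8.18% ± 1.31 (SD, n = 5) of the summed FPKM of Eno1 and Eno2 in Atf6+/+ OIR, 7.40% ± 0.73 in Atf6-/- OIR, 18.2% ± 1.03 in saline-treated and 18.2% ± 0.854 in Ceapin-A7-treated retinas. The share of Hk2 in the sum of Hk1 and Hk2 was 9.95% ± 0.992, 9.78% ± 2.36, 19.3% ± 3.38 and 19.1% ± 1.64 in the same order. Slc2a3 made up 12.7% ± 1.32, 12.5% ± 1.22, 22.2% ± 2.35 and 21.4% ± 1.84 of the glucose transporter pair. In all 3 families the OIR and P30 ranges were apart while the 2 groups within each experiment overlapped. The brain-type Aldoc made up 6.04% ± 0.538 and 6.29% ± 0.461 of the sum of Aldoa and Aldoc in the OIR groups and 9.92% ± 0.944 and 11.5% ± 0.748 at P30. MCT4 (Slc16a3) made up 65.1% ± 6.17 of the lactate transporter pair in Atf6+/+ OIR, 53.7% ± 7.18 in Atf6-/- OIR, 38.0% ± 5.41 in saline-treated and 33.7% ± 2.54 in Ceapin-A7-treated retinas. The 2 OIR groups overlapped between 57.0 and 64.1%.

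Of these families, only phosphofructokinase held a share whose saline and Ceapin-A7 ranges did not meet. Pfkm made up 16.5 to 22.6% of the sum of Pfkl, Pfkm and Pfkp in saline-treated and 22.8 to 23.9% in Ceapin-A7-treated retinas, with means of 19.6% ± 2.27 and 23.3% ± 0.459 (SD, n = 5). Pfkp took 43.4% ± 1.71 and 40.6% ± 1.73, and Pfkl 37% ± 1.67 and 36.1% ± 1.44. The Pfkm share is not a separate result, since its sum holds the lower Pfkp and Pfkl values described above. The FPKM of Pfkm itself overlapped between the saline and Ceapin-A7 groups, and the gap in its share was narrow. How often shares of other genes lie apart was not measured. In OIR retinas Pfkp took more, 50.0% ± 3.12 in Atf6+/+ and 52.5% ± 3.10 in Atf6-/- retinas, and Pfkm less, 12.3% ± 1.87 and 12.9% ± 1.07. Ldhb, the heart-type subunit, had means of 11.4 to 14.5% of the sum of Ldha and Ldhb over the 4 groups. Splicing of Pkm into its M1 and M2 forms cannot be read from gene values.

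**Figure D5:**
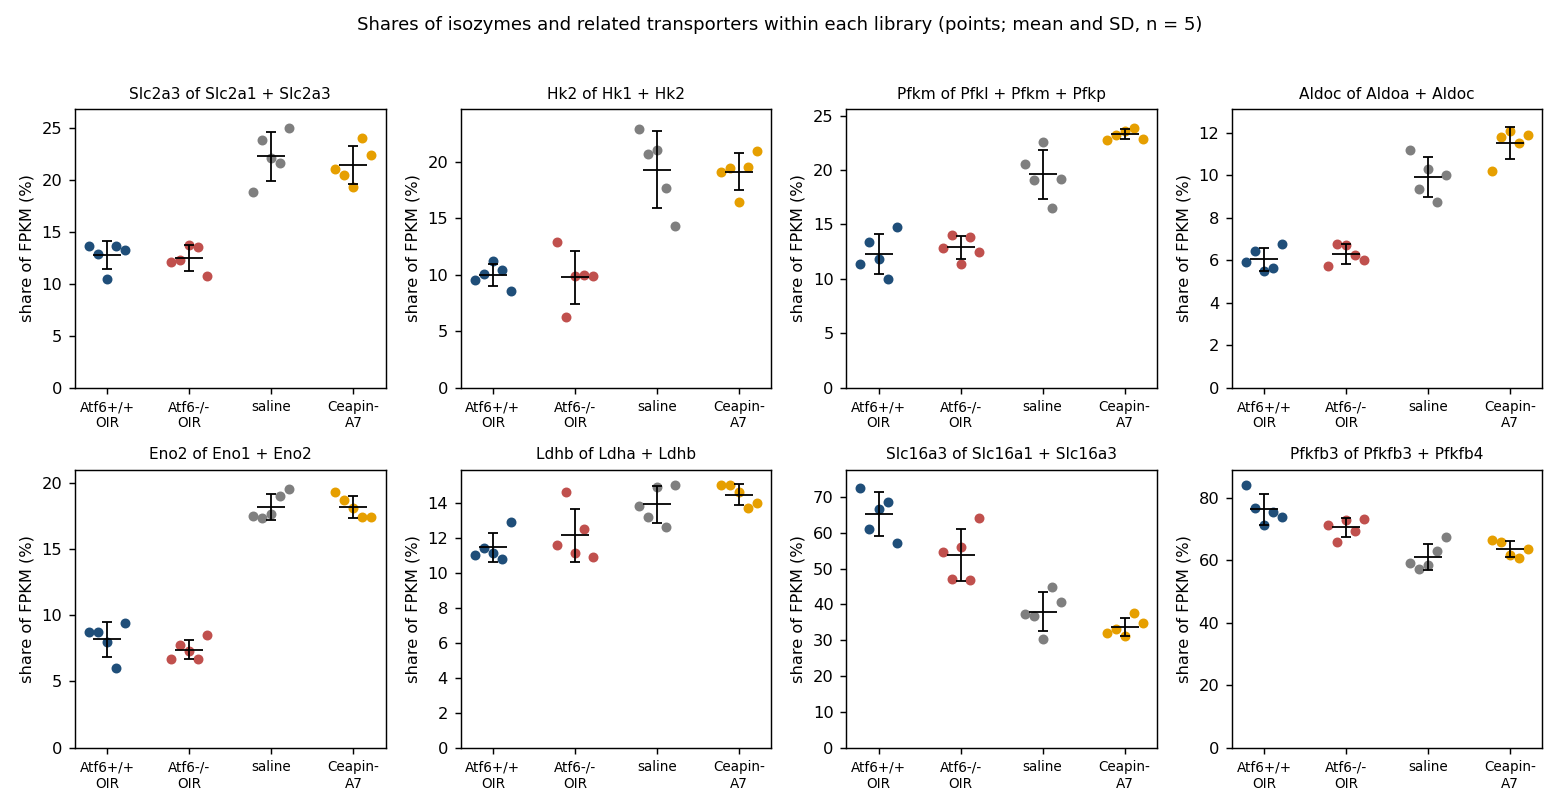
Share (%) of one isozyme or transporter in the summed FPKM of the members of its family named above each panel, within each library (vertical axes, from 0), by group, with the mean and SD of 5. The shares of Eno2, Hk2, Slc2a3, Aldoc and Pfkm are higher in both P30 groups than in both OIR groups, and that of Slc16a3 lower, from 65.1% in Atf6+/+ OIR to 38.0% in saline-treated retinas.

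Other genes of the same pathways were compared between OIR and saline-treated retinas in the same way. Of the other HIF targets, 32 of 40 (80%) passed the adjusted threshold, 24 higher and 8 lower, where 59% of all genes passed, 29.6% higher and 29.4% lower, with a median log2 difference of 0.48. The growth factor Vegfa (log2 difference 1.63, SE 0.12, limma adjusted p = 1.41e-09), erythropoietin Epo (3.57, SE 0.44), the insulin-like growth factor binding protein Igfbp3 (3.27, SE 0.32), the heme oxygenase Hmox1 (2.86, SE 0.40), the collagen crosslinker Loxl2 (2.59, SE 0.24) and the HIF hydroxylase Egln3 (2.34, SE 0.26) were among the higher. Hilpda of lipid droplets (-0.41, SE 0.08), Insig2 (-0.56, SE 0.07), Rora (-0.44, SE 0.06) and the carbonic anhydrase Car12 (-1.27, SE 0.44) were among the lower. Of the further genes of glycolysis and pyruvate use, 21 of 32 tested (65.6%) passed, 11 higher and 10 lower, with a median of 0.068, a share near that of all genes. The MCT chaperone basigin, Bsg (0.85, SE 0.06), and the phosphoglucomutase Pgm1 (0.87, SE 0.08) were higher. Genes that carry pyruvate into mitochondria and oxidize it were lower in Mpc2 (-1.08, SE 0.06), Dlat (-0.29, SE 0.06) and Pdha1 (-0.24, SE 0.07), higher in Mpc1 (0.21, SE 0.09), and not called in Pdhb.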

How the data were processed

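RNA from whole mouse retinas was sequenced by the authors as stranded mRNA libraries (DNBSEQ). The deposited tables hold FPKM per gene and library, a unit scaled to transcript length and library size. The submitters' processing notes name HISAT2 2.0.4, RSEM 1.2.18, DESeq2 1.4.5 and GRCm39. Read counts were not used here, so the depth behind a value is unknown beyond its ratio between libraries.

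Each library was first rescaled by a median-of-ratios size factor, and values were tested as log2(FPKM + 0.1) with limma 3.58.1 in R 4.3.3 (eBayes with trend), in genes with mean FPKM above 0.1, with Benjamini-Hochberg adjustment over all genes tested. A fold change on this scale understates that of low genes. The knockout and Ceapin-A7 comparisons used their own 10 libraries each, and comparisons across experiments used all 20. Because the groups share replicate numbers, same-numbered libraries were checked for shared deviations (r from -0.26 to 0.21 in OIR and from -0.22 to 0.31 at P30), and the numbers were not taken to pair them. Each group was described in the methods as 5 whole retinas. The sources used here do not say that each library is a separate animal, so p-values measure the spread between these samples, which may be partly technical. No 2 libraries of a group shared over 0.721% of values. The scripts were tested on simulated data. Promoter sequences came from RefSeq (GRCm38.p6), and none of the authors' coordinates were used.

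The members, gene lists and tests were chosen with earlier results of these data known. Values in every library are given for members at adjusted p under 0.05 or unadjusted p of at most 0.05 in the knockout or Ceapin-A7 comparison, and for the 5 largest positive and 5 largest negative differences between Atf6+/+ OIR and saline. Of the other lists, genes past the adjusted threshold or else the 3 smallest p-values could be named. Alternatives covered the pseudocount (0.01 and 1), filters, scaling, weights, GC content, a sex-linked covariate, a replicate block and each library left out.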

Additional observations from a re-analysis of the deposited data

Results flagged for a closer look

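Single libraries stood apart from the other 4 of their group (Dixon's test, gap over range above 0.71) in 12 of 148 groups of member values, where chance flags about 1 in 20, or 7.4. The first of them were high in Atf6+/+ OIR replicate 1, the library with the highest value of its group in 16 of 37 members: Adm at 32.58 FPKM (next 13.9), Bhlhe40 at 51.87 (next 28.59) and Mxi1 at 72.89 (next 60.02). Ldhb was high in Atf6+/+ OIR replicate 4, at 172.76 FPKM (next 141.44). In Atf6-/- OIR retinas, replicate 3 was high for Pfkp at 237.6 FPKM (next 195.9) and P4ha2 at 10.45 (next 8.03), and replicate 2 was low for P4ha1 at 15.79 (next 19.61). Among saline-treated retinas, replicate 1 was low for Ankrd37 at 21.86 FPKM (next 24.14) and high for Car9 at 1.2 (next 0.08), and replicate 5 was high for Vldlr at 49.75 (next 46.63). Among Ceapin-A7-treated retinas, replicate 2 was high for Ldhb at 158.29 FPKM (next 148.41), and replicate 5 was low for Pdk1 at 13.86 (next 14.46).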

How the results depend on the processing

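No median of the members changed sign, and no called member changed direction, under any setting tried. In the knockout, array weights (libraries weighted by their fit) called 8 members at the adjusted threshold, 7 lower (Hk1, Pfkl, Pfkm, Pgam1, Eno2, Ddit4 and Bhlhe40) and Ldhb higher, along with 17.6% of all genes. Members at an unadjusted p of at most 0.05 numbered 13 in the fit of 20 libraries (11 lower, with 17.5% of all genes at that p), and 4 to 14 with a library left out: 5 without Atf6+/+ OIR replicate 1 (8.28% of genes), 4 without Atf6-/- OIR replicate 4 (6.95%) and 14, 12 of them lower, without Atf6-/- OIR replicate 5 (25.5%). For Ceapin-A7 the members' median log2 difference was -0.079 after TPM rescaling (-0.037 for all genes) and -0.019 with the Ddx3y covariate. The count at that p was 7 after quantile normalization (10.3% of all genes). With a library left out it ran from 3 without Ceapin-A7 replicate 4 or 5 (8.52% and 8.1%) to 9 without saline replicate 3 (14.4%). In the difference between the effects, array weights called 1 member, Pfkm, along with 4.76% of all genes. With a library left out, the count at that p ran from 3 to 8. It was 3 without Atf6+/+ OIR replicate 1, Atf6-/- OIR replicate 2 or 4, or Ceapin-A7 replicate 4 or 5 (6.44% to 10.8% of genes). It was 8 without Atf6+/+ OIR replicate 3 (7.28%). For OIR against saline the median was 0.254 after quantile normalization. The cause of these shifts was not tested. Of all genes at that p in the knockout, 54.4% were higher as scaled here, 30.5% with FPKM as deposited and 31% after TPM rescaling, while 32 and 33 of 37 members were then lower. After Ceapin-A7 the shares were 48.7%, 57.4% and 26.8%. With a replicate block the counts at that p were 9 members (knockout, 12.5% of all genes), 5 (Ceapin-A7, 10.4%) and 4 (difference, 8.51%), and 0 members passed the adjusted threshold in these 3. For OIR against saline 25 members passed the adjusted threshold (58.3% of all genes). In OIR against saline, leaving out a library ended the call (limma adjusted p) of Bnip3 (0.0782 and 0.0763 without Atf6+/+ OIR replicates 1 and 4, 0.0585 without saline replicate 1), Higd1a (0.0578 and 0.0562 without Atf6+/+ OIR replicates 3 and 5, 0.051 without saline replicate 2), Pfkfb4 (0.0591 to 0.1 without Atf6+/+ OIR replicates 1, 2 or 5 or saline replicates 1, 2, 3 or 4) and Car9 (0.0509 to 0.127 without any of 13 libraries). Array weights also ended it for Bnip3 and Car9, quantile normalization for Aldoa, Ldha, Pfkfb4 and Car9, FPKM as deposited for Pfkfb4, GC correction for Vldlr and Car9, no filter for Pfkfb4 and Car9, and a pseudocount of 1 or eBayes without trend for Car9.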
